A study of Homo sapiens with 12 samples.

Results

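The regions described here are accessible regions far from any promoter that were listed for BT-549 breast cancer cells and had no counterpart in DU-145 prostate cancer cells. A region was taken if it lay on an autosome, if every 100-bp bin of it was more than 3 kb from any transcription start site (TSS) of GENCODE v44, if none of its bins was in the DU-145 table, and if no peak of any DU-145 library overlapped it. Of the 46298 regions of the BT-549 table, 6902 (14.9%) met these conditions, which was 31.4% of the 21998 autosomal regions more than 3 kb from a TSS. A further 2477 such regions without a DU-145 bin were left out because a DU-145 library had a peak there, 1176 of them in 1 library and 972 in 2. The regions were selected on their presence in BT-549 and absence in DU-145, so that the contrast between the lines is a description of the choice and was not tested.

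DNA that is open far from promoters holds many enhancers, elements that bind transcription factors and act on genes at a distance. Enhancers differ more between cell types than promoters do, and sets of them that are open in 1 cell line only often carry the binding sequences of the factors that the line uses. AP-1, a dimer of JUN and FOS family proteins, binds at many distal elements and recruits the BAF chromatin remodeler. MUC1-C, the transmembrane subunit of the mucin MUC1, was studied in this series for its part in chromatin opening with JUN and BAF.

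BT-549 is a cell line of human triple-negative breast cancer, and DU-145 is one of castration-resistant prostate cancer. Both carried a tet-MUC1shRNA, a hairpin against MUC1 that is switched on by doxycycline (DOX). For each line, 3 libraries came from cells given 0.1% DMSO as vehicle and 3 from cells given DOX, after 7 days, which makes 12 in all. Another field of the labels calls the vehicle cells untreated. In ATAC-seq, the Tn5 transposase cuts open DNA, and the number of fragments over a stretch measures how accessible it was. The study's methods describe the replicates of a condition as biologically independent. Silencing of MUC1 cannot be told apart from other effects of DOX.

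The 6 BT-549 libraries differed in depth. Summed over all bins, coverage was 13606129, 11675868 and 9142900 in the vehicle libraries and 2580687, 2502510 and 3267024 in the DOX libraries, so that the deeper libraries were all vehicle. A peak lay at or near a TSS of CDH2 (N-cadherin) and of TWIST1, genes of mesenchymal cells, in 6 of 6 BT-549 libraries and 0 of 6 DU-145 libraries. The mesenchymal genes VIM, ZEB1, SPARC and FN1 had such a peak in 6 of 6 libraries of both lines, and so did the epithelial gene ESRP1. Of the other epithelial and luminal markers, CDH1 (E-cadherin), EPCAM, KRT8, KRT18, GRHL2 and PGR had a peak in 2 to 4 BT-549 and 6 DU-145 libraries, and ESR1 in 2 and 5. Values below are normalised coverage, the mean number of fragments over a bin after scaling each BT-549 library to the same effective size. In these bulk libraries, opening in fewer cells and less opening in each cell cannot be told apart.

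The windows of 300 bp around the highest bin of 7 regions are printed here on the + strand of GRCh38, because the comparisons below turn on them. They belong to a region of very high coverage in vehicle (COL4A2), to the steepest fall among the 5 fallen regions with the most vehicle coverage (CD180), and to regions that opened with DOX (CNTN4, ANXA10, STPG2), or held several copies of an interferon-response sequence (TMEM54, BCKDHB). Each is named by its nearest protein-coding gene. Capitals mark the AP-1 sequence TGANTCA in the windows near CD180, CNTN4 and STPG2, and the interferon-stimulated response element (ISRE) sequence, GAAA, any 2 bases and GAAA on either strand, in those near TMEM54 and BCKDHB. The windows near COL4A2 and ANXA10 held neither of these sequences. The windows were chr13:110396901-110397200 (COL4A2), chr5:67315301-67315600 (CD180), chr3:2823101-2823400 (CNTN4), chr4:168097401-168097700 (ANXA10), chr4:97496501-97496800 (STPG2), chr1:32919901-32920200 (TMEM54) and chr6:80689701-80690000 (BCKDHB).
COL4A2: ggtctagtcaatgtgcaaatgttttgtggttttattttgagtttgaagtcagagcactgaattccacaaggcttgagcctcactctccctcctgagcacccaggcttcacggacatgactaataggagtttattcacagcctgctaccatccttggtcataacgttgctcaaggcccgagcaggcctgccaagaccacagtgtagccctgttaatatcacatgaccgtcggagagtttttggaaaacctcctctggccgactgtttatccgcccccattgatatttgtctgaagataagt
CD180: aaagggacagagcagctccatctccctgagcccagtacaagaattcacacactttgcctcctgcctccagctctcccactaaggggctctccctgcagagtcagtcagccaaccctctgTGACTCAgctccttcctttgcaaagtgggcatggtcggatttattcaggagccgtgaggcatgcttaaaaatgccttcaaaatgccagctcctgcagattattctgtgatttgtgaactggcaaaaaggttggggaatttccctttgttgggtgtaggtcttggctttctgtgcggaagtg
CNTN4: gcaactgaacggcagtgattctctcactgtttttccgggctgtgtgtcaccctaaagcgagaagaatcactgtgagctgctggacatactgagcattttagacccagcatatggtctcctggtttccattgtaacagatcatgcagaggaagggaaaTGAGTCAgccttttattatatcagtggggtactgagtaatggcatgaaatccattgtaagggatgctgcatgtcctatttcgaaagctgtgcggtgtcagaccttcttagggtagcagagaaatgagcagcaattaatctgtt
ANXA10: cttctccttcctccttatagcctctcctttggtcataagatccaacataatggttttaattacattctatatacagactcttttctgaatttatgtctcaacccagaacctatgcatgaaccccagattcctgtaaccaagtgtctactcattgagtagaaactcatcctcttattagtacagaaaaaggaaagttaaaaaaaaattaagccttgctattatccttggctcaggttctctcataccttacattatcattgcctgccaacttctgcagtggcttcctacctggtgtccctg
STPG2: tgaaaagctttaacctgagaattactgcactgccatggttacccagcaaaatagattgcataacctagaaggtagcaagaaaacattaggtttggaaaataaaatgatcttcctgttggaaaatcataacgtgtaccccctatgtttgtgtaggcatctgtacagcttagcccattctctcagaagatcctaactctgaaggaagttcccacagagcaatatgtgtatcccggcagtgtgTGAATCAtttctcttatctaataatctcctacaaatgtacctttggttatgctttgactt
TMEM54: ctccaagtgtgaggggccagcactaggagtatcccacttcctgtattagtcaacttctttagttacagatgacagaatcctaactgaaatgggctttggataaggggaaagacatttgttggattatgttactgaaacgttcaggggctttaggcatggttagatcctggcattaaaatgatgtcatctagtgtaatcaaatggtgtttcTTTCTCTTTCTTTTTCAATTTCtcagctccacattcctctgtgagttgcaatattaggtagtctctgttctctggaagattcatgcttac
BCKDHB: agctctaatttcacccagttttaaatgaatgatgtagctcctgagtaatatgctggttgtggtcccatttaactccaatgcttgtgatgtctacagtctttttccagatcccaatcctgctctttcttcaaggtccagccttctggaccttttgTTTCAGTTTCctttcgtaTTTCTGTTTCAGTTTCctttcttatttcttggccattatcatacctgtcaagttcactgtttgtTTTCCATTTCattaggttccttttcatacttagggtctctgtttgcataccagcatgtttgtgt

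The regions were small and most lay far from a TSS, though more of them were inside genes than between genes. Their median width was 500 bp, against 700 bp for the 12619 distal BT-549 regions that also had a DU-145 bin (shared distal regions below). An intron held 3695 of them (53.5%), intergenic DNA 2868 (41.6%) and an exon 339 (4.91%). The median distance to a TSS was 18625 bp and that to the TSS of a protein-coding gene was 48698 bp, against 23598 bp for shared distal regions. A protein-coding TSS was more than 100 kb away for 36.1% and more than 500 kb away for 10.1%, against 17% and 2.12% of shared distal regions. No DU-145 peak lay within 10000 bp of 45% of the regions, or within 50000 bp of 22.2%. At the 3-kb limit, the closest regions inside lay 3005, 3010 and 3014 bp from a TSS (of MIR4289, a long noncoding RNA gene near RCN1, and ADH6), and the closest ones outside lay 2999, 2997 and 2996 bp away (MAVS, ZBTB47 and NAALADL2-AS2).

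Coverage was modest and most regions were found in the vehicle libraries only. The median normalised coverage over the 6902 regions was 6, 5.84 and 6.16 in the vehicle libraries and 4.96, 4.21 and 4.98 in the DOX libraries, and the groups did not overlap. Shared distal regions had a median of 7.71 in vehicle and 7.53 with DOX. A peak was called at 6804, 6759 and 6604 regions in the vehicle libraries, but at 1528, 1784 and 1448 in the DOX libraries. The median fold enrichment of those peaks over local background, as the authors' peak caller gave it, was 7.63, 7.96 and 6.58 in vehicle and 5.03, 5.28 and 5.69 with DOX. Peaks were present in all 6 libraries at 737 regions (10.7%), against 27.5% of shared distal regions and 55.4% of regions within 3 kb of a TSS. No DOX library had a peak at 4325 regions (62.7%), against 38.1% of shared distal regions. These differences between classes were not tested.

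**Figure D1:**
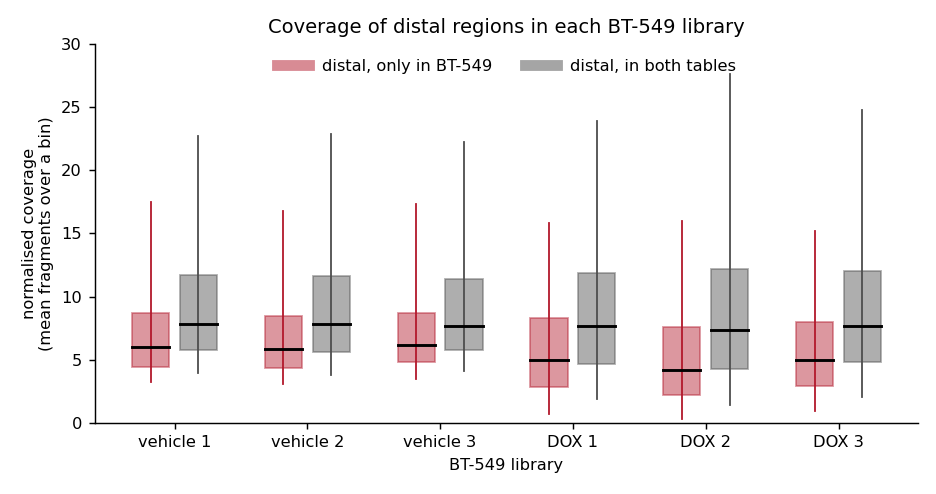
Normalised coverage (mean fragments over a bin) in each of the 6 BT-549 libraries, for the 6902 distal regions only in BT-549 (red) and the 12619 distal regions in both tables (grey). Boxes span the quartiles, the black line is the median and the whiskers run from the 5th to the 95th percentile. The red medians lie at 6, 5.84 and 6.16 in vehicle and at 4.96, 4.21 and 4.98 with DOX.

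The regions took a smaller part of the coverage after DOX. They held 6.06%, 5.86% and 6.11% of all coverage in the vehicle libraries (mean 6.01% ± 0.131, SD, n = 3) and 4.49%, 4.14% and 4.51% in the DOX libraries (4.38% ± 0.211, n = 3). Shared distal regions held 18.5%, 18.3% and 18.2% in vehicle and 16.7%, 17% and 17.2% with DOX. The ratio of the first share to the second was 0.328, 0.32 and 0.336 in vehicle and 0.269, 0.243 and 0.263 with DOX, so that the groups did not overlap in either measure. However, 4325 of the 6902 regions had no DOX peak and entered through the vehicle libraries. Lower DOX shares, and the lower DOX medians above, are thus partly built into the choice. At the 2577 regions with a DOX peak, also a choice on these libraries, median normalised coverage was 7.11 in vehicle and 8.78 with DOX. Across the regions, log coverage correlated at r = 0.954 to 0.966 between vehicle libraries, 0.76 to 0.797 between DOX libraries and 0.648 to 0.698 between the groups, over 6902 regions that share the depth of each library. Bins of the regions with less than 1 fragment made up 19.6% to 34.6% in the DOX libraries, against at most 0.238% in vehicle.

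Each region was then compared between DOX and vehicle with edgeR's quasi-likelihood test fitted over all 46298 regions, and called when it changed 2-fold or more with a Benjamini-Hochberg adjusted p under 0.01. DOX lowered 1153 of the 6902 regions (16.7%), against 7.19% of all regions tested, and raised 411 (5.95%), against 4.70% of all regions. The other 5338 were not called. Every DOX library was below every vehicle library at 2707 regions (39.2%, against 22.6% of all regions), and above at 810 (11.7%, against 20.4%). The median log2 fold change was -0.46, with quartiles of -1.12 and 0.20. That median was -0.11 over shared distal regions, 0.13 over regions within 3 kb of a TSS and 0.00 over all regions. Of the shared distal regions, 994 (7.88%) fell and 697 (5.52%) rose. Without vehicle replicate 1, 2 or 3 in turn, 699, 756 and 746 regions of the BT-549 set fell and 243, 236 and 244 rose. The shares that rose were then 3.52%, 3.42% and 3.54% of the set, against 3.35%, 3.48% and 3.24% of all regions. The excess of rises in the set was thus small or absent without any of the vehicle libraries. The share that fell stayed above that of all regions each time.

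**Figure D2:**
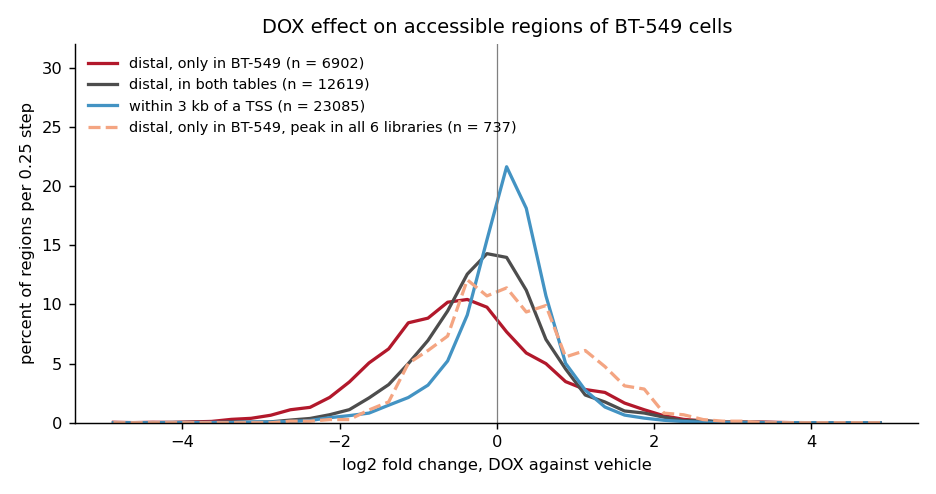
Distribution of the log2 fold change, DOX against vehicle, as the percent of regions in each step of 0.25, for 4 sets of BT-549 regions. The set only in BT-549 (red, median -0.46) lies left of the shared distal set (dark grey, -0.11), and its 737 regions with a peak in all 6 libraries (dashed) are centred near 0.11.

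The direction differed with how many libraries had a peak. A region enters the BT-549 table when at least 3 libraries detect it, and the vehicle libraries were the deeper ones. A region seen in 3 libraries was mostly one seen in vehicle. The 4630 regions with a peak in 3 libraries included 928 that fell (20%, against 14% of all regions with such support) and 76 that rose (1.64%, against 1.2%), with a median of -0.72. Over the 1060 regions with a peak in 4 libraries, 113 fell (10.7%, against 5.83%) and 117 rose (11%, against 5.04%), with a median of 0.16. The 475 with a peak in 5 libraries had 48 that fell (10.1%, against 4.97%) and 79 that rose (16.6%, against 9%), with a median of 0.07. At the 737 regions with a peak in all 6 libraries, 64 fell (8.68%) and 139 rose (18.9%), and the median was 0.11. All 17719 regions of the table with such support had 287 that fell (1.62%), 1226 that rose (6.92%) and a median of 0.21. None of the 4325 regions without a DOX peak rose and 928 fell, while the 2577 with a DOX peak had 225 that fell and 411 that rose (median 0.29). Over all regions of the table, 2421 of the 16150 without a DOX peak fell (15%, against 21.5% of the set) and 1 rose, and 906 of the 30148 with one fell (3.01%, against 8.73%) and 2175 rose (7.21%, against 15.9%). The 9 regions with no vehicle peak all rose. A fallen region with a peak in 3 libraries was in every case one with no DOX peak. Such a region, or one with peaks only in DOX, entered the table through the group in which it was high, so that its direction is not independent of that choice and its p-value does not account for it. Detection and change are read from the same libraries, and the part of depth in the fall of the set was not tested.

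Base composition and coverage moved with the change as well. The median log2 fold change rose with GC content, from -0.94 in the 363 regions under 35% GC through -0.62 in the 1883 regions of 40 to 45% to 0.90 in the 442 regions of 60% or more. DOX lowered 25.1% of the regions under 35% GC and 1.58% of those of 60% or more, and raised 1.93% and 29.2% of them. Over all regions of the table, the medians of these outer classes were -0.57 and 0.27, with 16.4% and 0.503% that fell and 2.67% and 6.32% that rose. In the quartile of the regions with the least vehicle coverage the median was 0.42, with 37 that fell (2.14%) and 302 that rose (17.5%). In the quartile with the most it was -0.86, with 676 that fell (39.2%) and 35 that rose (2.03%). Over all regions of the table in the same coverage classes, 0.855% fell and 18.1% rose in the lowest (median 0.55), and 10.1% fell and 2.1% rose in the highest (median 0.01). Vehicle coverage is also the denominator of the fold, so that the classes are not independent of the change. With the GC trend removed in the fit, 602 regions fell and 468 rose, and the median was -0.20, so that 56.3% of the calls were lower against 73.7% without that step. These 602 and 468 were 8.72% and 6.78% of the set, against 4.24% and 5.11% of all regions, where 45.3% of the calls were lower against 60.5% without that step. With loess offsets, 887 fell and 496 rose (64.1% lower, median -0.29), and 54% of the calls over all regions were lower. The part of GC content in the change was not tested further.

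The 5 regions with the most vehicle coverage among those that fell all had a peak in every library. The region with the most vehicle coverage outside chromosome 8 was in an intron of COL4A2, which encodes a chain of basement membrane collagen IV, at chr13:110396201-110398000. Its normalised coverage was 56.8, 62 and 58.7 in vehicle and 20.3, 19.5 and 14.8 with DOX. This 1800-bp region had a peak in all 6 libraries and fell 3.27-fold (log2 fold change -1.71 ± 0.12, SE, adjusted p = 3.66e-11). The intergenic region near CD180, a Toll-like receptor family gene of B cells, at chr5:67314801-67316200, had 39.7, 41.7 and 44.1 in vehicle and 9.47, 8.77 and 8.91 with DOX. It fell 4.59-fold (-2.20 ± 0.15, adjusted p = 1.97e-11), and its window carries the AP-1 letters printed above. A region 129538 bp from NR2F2, a nuclear receptor of mesenchymal tissues, at chr15:96462701-96464200, had 42.1, 41 and 42.1 in vehicle and 14.7, 16.3 and 13.6 with DOX (-1.50 ± 0.13, adjusted p = 2.21e-09). A region in an intron of IGFBP7-AS1, beside the secreted growth factor binding protein gene IGFBP7, changed by -1.23 ± 0.16. In each of these 4 the groups were far apart.

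Regions with much coverage also rose. The region in an intron of CNTN4, a neuronal contactin gene, at chr3:2822601-2823700, had 18.3, 16.8 and 16.8 in vehicle and 49, 43.6 and 50.2 with DOX. It rose 2.75-fold (1.46 ± 0.14, adjusted p = 6.16e-09) and holds the AP-1 letters printed above. An intergenic region 515374 bp from LRFN5, a synaptic adhesion gene, at chr14:42214801-42215500, had 5.53, 4.61 and 3.71 in vehicle and 31.3, 54.3 and 43 with DOX (3.19 ± 0.23, adjusted p = 6.57e-11). The groups did not overlap, though the DOX libraries differed among themselves more than those of CNTN4. A region 216084 bp from SLC10A2 rose by 1.32, but by 0.40 (adjusted p = 0.115) when only its highest bin was tested. The other 2 of the 5 regions with the most coverage among those that rose lay on chromosome 8, near TRPS1 and HNF4G, and rose by 1.27 and 1.26. The regions named in both directions here were chosen after their values were seen.

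**Figure D3:**
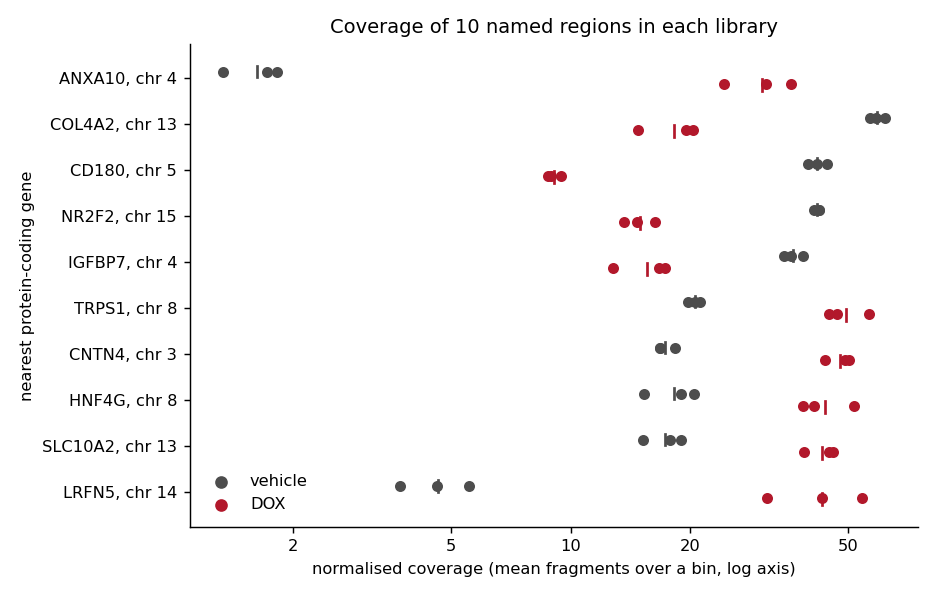
Normalised coverage (mean fragments over a bin, log axis) in the 3 vehicle (grey) and 3 DOX (red) libraries of 10 regions, each named by the nearest protein-coding gene and its chromosome. Points are libraries and vertical ticks are group means. COL4A2 lies near 59.2 in vehicle and 18.2 with DOX, and ANXA10 near 1.62 and 30.4.

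The changes were widest at regions that were almost empty in 1 condition. The region in an intron of ANXA10, an annexin gene of gastric epithelium, at chr4:168097301-168097800, had 1.72, 1.33 and 1.82 in vehicle and 31.1, 24.3 and 35.9 with DOX. Its rise, 18.5-fold (4.21 ± 0.32, adjusted p = 1.29e-10), was the widest of the 381 regions eligible to be named for a rise. A region in an intron of STPG2, at chr4:97496401-97496900, had 3.32, 1.97 and 2.22 in vehicle and 27.1, 21 and 31.1 with DOX (3.40 ± 0.32, adjusted p = 4.74e-09). A region 606268 bp from DOK5, at chr20:55161201-55161500, had 1.58, 1.71 and 0.614 against 17, 12.6 and 15.6 (3.51 ± 0.47, adjusted p = 1.66e-06). The vehicle and DOX libraries do not overlap in any of these, which the rule for naming them required. A vehicle library had a peak only at the STPG2 region, in 1 of 3. The regions near ANXA10 and DOK5 thus entered the table through the DOX libraries alone, and their folds and p-values describe regions chosen where DOX was high.

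The windows of some risen regions were made of short repeats. At chr1:143246901-143247200, an intergenic region 658593 bp from H3-7, coverage was 1.54, 1.24 and 1.48 in vehicle and 15.5, 14.2 and 17 with DOX (3.41 ± 0.44, adjusted p = 9.27e-07), and only the DOX libraries had a peak there. Its window held the letters ATTCC, on either strand, 14 times, where the median was 1 copy over the 6902 regions. These letters also end the TEAD sequence searched below. There were 10 or more copies in the windows of 12 of the 6902 regions (0.174%), against 0.145% of all regions of the table. Of these 12, 11 rose with DOX and 8 lay on chromosome 20. Over all chromosomes, 5.95% of the set and 4.70% of all regions tested rose, and on chromosome 20 these shares were 17.1% and 10.4%. Over the whole table, 66 of the 67 regions with 10 or more copies rose and 17 lay on chromosome 20, so that such windows rose outside the set as well. Fragments from such repeats can align to many places, and the part of alignment in these values was not tested. The window of the region is shown for its repeats.
H3-7: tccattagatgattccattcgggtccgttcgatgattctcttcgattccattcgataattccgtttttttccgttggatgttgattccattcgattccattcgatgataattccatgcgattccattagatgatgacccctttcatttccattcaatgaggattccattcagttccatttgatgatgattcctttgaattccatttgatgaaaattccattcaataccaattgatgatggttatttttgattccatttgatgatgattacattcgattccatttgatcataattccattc

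The regions with the widest falls had no more than a few fragments in the DOX libraries, so that their fitted folds depend on the prior count and are not given. In an intron of HEATR4, near the acyl-CoA thioesterase gene ACOT1, at chr14:73545601-73545900, coverage was 5.18, 6.94 and 5.13 in vehicle and 0, 0 and 0.198 with DOX. With a floor of 3 counts put in for the DOX group it was 6.33-fold lower (edgeR adjusted p = 4.35e-04). The 95% counting interval of its DOX to vehicle ratio ran from 0 to 0.199. A region 341742 bp from NAF1, a telomerase assembly factor gene, at chr4:162791101-162791900, had 7.09, 6.56 and 6.81 in vehicle and 0.498, 0.485 and 0.277 with DOX. The ratio of DOX to vehicle was 0.0495, with a 95% counting interval of 0.0102 to 0.146 (adjusted p = 1.37e-06). The groups did not overlap at either region, which the rule for naming them required. Such intervals cover counting error only, and the summed coverage of neighbouring bins is not a set of independent counts. The regions near OXSM and ATP23 had ratios of 0.0466 (interval 0.00117 to 0.266) and 0.0481 (0.00121 to 0.275), each resting on 1 DOX count. No DOX library had a peak at any of the 4, so that they entered the table through the vehicle libraries alone, and their ratios and p-values describe regions chosen where vehicle was high. The NAF1 region lost its call in the highest bin (adjusted p = 0.0179). That near OXSM lost it with loess offsets (adjusted p = 0.0101) and in the highest bin (adjusted p = 0.0892), and that near ATP23 with loess offsets (adjusted p = 0.0129) and without DOX replicate 3 (adjusted p = 0.0106).

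Sequences were counted in the 300-bp window of every region. The AP-1 sequence TGANTCA was in 1783 windows (25.8%, Wilson 95% interval 24.8 to 26.9), against 39.2% of shared distal regions, 12.3% of regions within 3 kb of a TSS, 22.7% of all BT-549 regions and 51.1% of the 24061 distal regions only in the DU-145 table. AP-1 sequences lay near the summit, with 1.56 per 1000 windows per bp at 20 bp from the middle of the highest bin and 0.522 at the left edge of the window, and 48.8% lay within 50 bp of the middle. Regions with AP-1 letters had more vehicle coverage (median 7.04 against 5.66) and more often a peak in all 6 libraries (16.5% against 8.65%). Their median log2 fold change was -0.52, against -0.43 without the letters, and 19.4% fell against 15.8%. Over all regions of the table the medians were -0.24 and 0.05, and 12.2% fell with the letters against 5.72% without. Under 50% GC the order of the medians turned, at -0.67 with and -0.83 without the letters under 40% GC and -0.50 and -0.57 from 40 to 50%. The shares that fell kept their order there by less than 1 percentage point, at 24.5% against 23.7% and 17.8% against 17.6%. From 50% GC the medians were -0.26 and 0.24, and 9.91% fell against 5.84%. Among the 737 regions with a peak in all 6 libraries, 39.9% held AP-1 letters, against 51.8% of shared distal regions with such support. Regions that fell held them in 30% of windows, those that rose in 22.9% and those not called in 25.2%, where the same shares over all regions of the table were 38.5%, 31.1% and 21%. Median GC was 41.4% with the letters and 44.6% without.

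**Figure D4:**
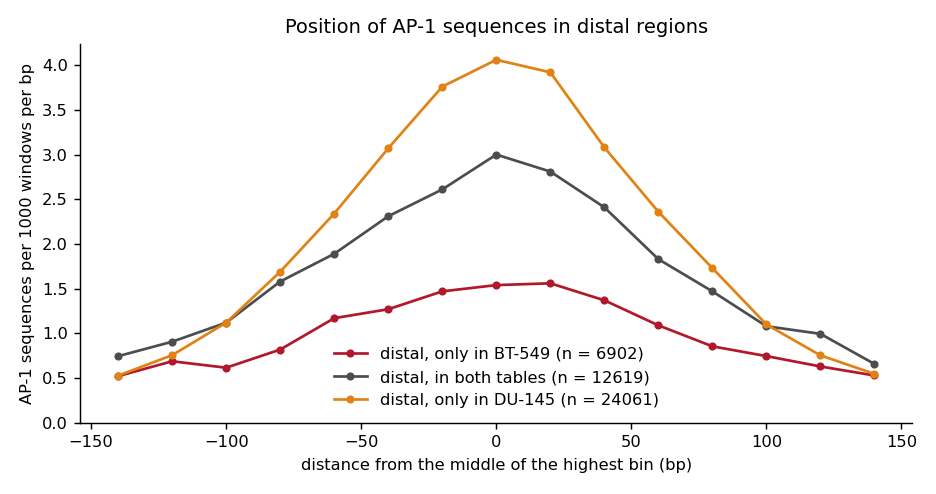
AP-1 sequences (TGANTCA) per 1000 windows per bp by distance (bp) from the middle of the highest bin, in the 6902 distal regions only in BT-549 (red), the 12619 in both tables (grey) and the 24061 only in DU-145 (orange). All 3 curves are highest near the middle, and the red curve reaches 1.56.

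The ISRE sequence (GAAA, any 2 bases, GAAA), bound by interferon regulatory factors, was in 13.4% of the windows of regions that fell and 1.95% of those that rose, against 11.9% and 2.62% over all regions of the table that fell and rose. In all it was in 578 windows (8.37%), against 5.3% of shared distal regions, 4.92% of all BT-549 regions and 3.71% of distal regions only in DU-145. DOX lowered 155 of these 578 regions (26.8%) and raised 8 (1.38%), where 15.8% of the other 6324 fell and 6.37% rose. Over all regions of the table, 17.4% of the 2278 with the sequence fell and 6.66% of those without it. The median log2 fold change was -0.92 with the sequence and -0.42 without, and over all regions it was -0.42 and 0.02. With 1 copy it was -0.90 (509 regions), with 2 copies -1.20 (56) and with 3 or more -1.40 (13). The lower values with the sequence were there in each class of GC content, at -1.18 against -0.72 under 40% GC, -0.84 against -0.52 from 40 to 50% and -0.41 against 0.17 from 50%. With the GC trend removed in the fit, the medians were -0.58 and -0.16. A peak in all 6 libraries was found at 5.19% of regions with the sequence and 11.2% of those without, and the part of detection was not tested. No test was made of the ISRE set.

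Both ISRE windows printed above belong to regions that fell. The intergenic region near TMEM54, at chr1:32919401-32920600, had 26.6, 33 and 26.6 in vehicle and 2.02, 1.48 and 3.8 with DOX, and its window held 3 copies. It fell 11.2-fold (-3.49 ± 0.25, adjusted p = 4.93e-11), and no DOX library had a peak there. The region 346030 bp from BCKDHB, at chr6:80689601-80690200, held 4 copies and had 9.49, 11.6 and 10.9 in vehicle and 1.35, 0 and 2.19 with DOX (-2.96 ± 0.48, adjusted p = 2.64e-05). Another region, with 3 copies, in an intron 86754 bp from the integrin gene ITGA6, went from 6.49, 5.38 and 7.76 to 0.443, 2 and 0.305. Its call (adjusted p = 0.00252) was lost in 8 of the 16 alternatives, among them DESeq2 and leaving out vehicle replicate 1 or 3 or DOX replicate 1 or 3 (adjusted p from 0.0106 to 0.0236 on leaving those out). Its DOX to vehicle ratio of 0.0932 rests on 2 counts and has an interval of 0.0111 to 0.346. These 3 were chosen after their values were seen, for 3 or more copies and a call. They are among the 4 that fell of the 13 regions with 3 or more copies, of which 0 rose and the rest were not called. All 3 named regions had peaks in the vehicle libraries only, and so entered the table through the group in which they were high, which their p-values do not account for.

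Other sequences differed in frequency as well. The RUNX sequence TGTGGTT was in 11.4%, against 10% of shared distal and 7.54% of all BT-549 regions, and in 15.4% of the regions that fell against 9.73% of those that rose (14% and 8.32% over all regions). The NF-kB sequence (GGG, any 2 bases, TTTCC) was in 122 windows (1.77%, against 1.97% of all regions), and 30.3% of these regions fell against 16.5% of the others, where over all regions tested 10.3% fell with the sequence and 7.12% without. The GATA sequence AGATAA was in 14.5% (all regions 9.46%), and the TEAD sequence ACATTCC in 7.01% (all regions 5.37%). The sequence of CTCF, which anchors chromatin loops (CCA, any 2 bases, AGG, any base, GGC), was in 0.768%, against 5.96% of shared distal and 3.45% of all regions. The E-box CAGGTG, which ZEB1 and SNAI proteins bind, was in 13.2% (all regions 19.2%), in 5.38% of regions that fell and 32.6% of those that rose (8.93% and 33% over all regions). Its median log2 fold change was -0.53 with no copy, -0.01 with 1, 0.53 with 2 and 1.31 with 3 or more, while median GC went from 43 to 47.9, 54.5 and 61.8% over the same steps. The SP/KLF sequence GGGCGG was in 6.17% (all regions 31%), in 2.52% of regions that fell and 14.6% of those that rose (5.32% and 23.5% over all regions). All were searched on both strands, and a match describes letters and not a bound site.

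Chromosome 8 held 1080 of the regions (15.6%), or 7.44 per Mb, and they made up 44.2% of its 2443 distal BT-549 regions. That share was 51.1% on chromosome 13 (395 regions), 42.9% on chromosome 4 (500) and between 17.7% and 36.2% on the others. On chromosome 8, 78 regions fell and 162 rose, with a median log2 fold change of 0.15, whereas off it 1075 of 5822 fell and 249 rose, with a median of -0.57. Over all regions of the table, 163 of 3915 on chromosome 8 fell (4.16%) and 489 rose (12.5%), with a median of 0.20, whereas off it 7.47% fell and 3.98% rose (median -0.02), so that the order was there in the whole table as well. Chromosome 20 had 17 that fell and 34 that rose among 199 (median 0.30), and of all 1429 of its regions 4.13% fell and 10.4% rose (median 0.29). Regions of chromosome 8 were higher within each class of GC content, at -0.42 against -0.83 elsewhere under 40%, -0.08 against -0.63 from 40 to 50%, 0.68 against -0.25 from 50 to 60% and 1.49 against 0.53 from 60%. The last stretch of the chromosome, from 140 Mb, held 183 regions with a median GC of 61.8%, of which 98 rose and 0 fell (median 1.42). Regions within 3 kb of a TSS had a median vehicle coverage of 7.05 on chromosome 8, against 8.5 to 13.2 on the other autosomes. Copy number was not tested.

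**Figure D5:**
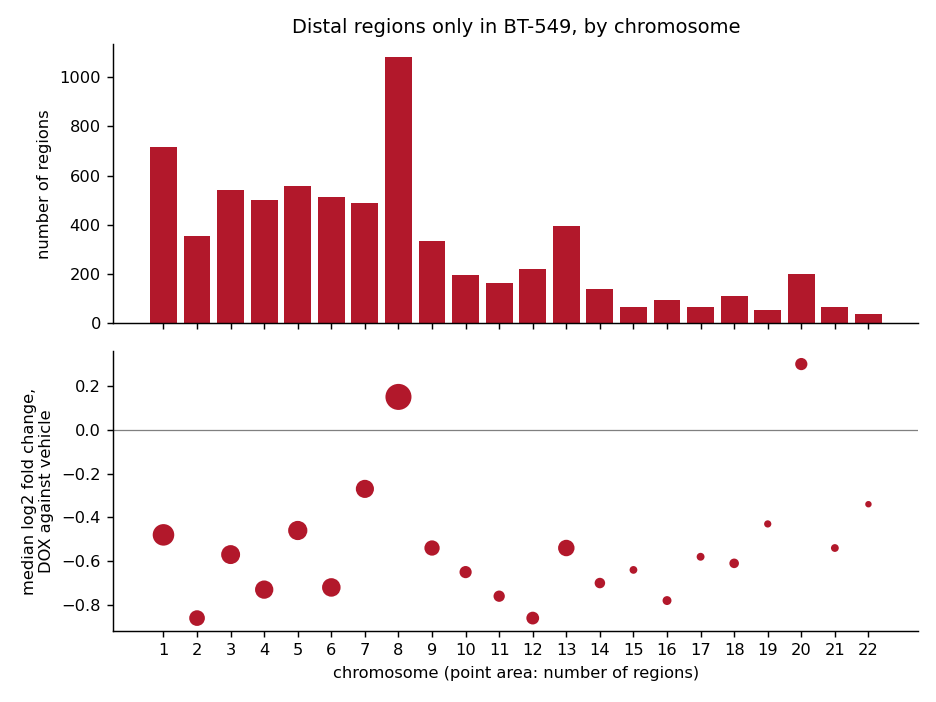
Number of distal regions only in BT-549 on each autosome (top) and their median log2 fold change, DOX against vehicle (bottom, point area by number of regions). Chromosome 8 has 1080 regions and a median of 0.15, and chromosome 20 a median of 0.30.

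Of the 5 regions with the most vehicle coverage, 4 lay on chromosome 8 and were not called. The region in an intron of the long noncoding RNA LINC01609, at chr8:111140201-111141800, had 69.3, 65.2 and 70.9 in vehicle and 81.8, 74.2 and 93.9 with DOX (0.29 ± 0.10, adjusted p = 0.0263). The one in an intron of FABP12, a fatty acid binding protein gene, had 56.2, 59.8 and 61.8 in vehicle and 45.5, 47.9 and 49.9 with DOX (-0.31 ± 0.10, adjusted p = 0.0235). The groups did not overlap at either, yet both differences were well under the fold limit. With the GC trend removed, the log2 fold change was 0.56 at LINC01609 and 0.07 at FABP12, and with loess offsets it was 0.01 and -0.54. Near EFR3A the groups overlapped, at 52.1, 51.8 and 51.1 against 53.5, 49.3 and 53.7 (0.01 ± 0.11, adjusted p = 0.942). Among the 5 widest rises, the region in an intron of XKR6, at chr8:10948701-10949100, had 0.989, 1.43 and 0.751 in vehicle and 17.6, 10.9 and 12.3 with DOX (3.63 ± 0.43, adjusted p = 3.40e-07), and only the DOX libraries had a peak there.

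The spacing of the regions along the genome was counted and was not compared with that of other regions. Another region of the set started within 20 kb of 39.2% of them, and 1215 lay in the 176 windows of 200 kb with at least 5. The window with the most, 20 regions at chr8:32200001-32400000, lay over NRG1, which encodes the ERBB3 and ERBB4 ligand neuregulin 1. It held 9 regions with AP-1 letters and 8 with a peak in all 6 libraries, and the median over its regions was 8.16, 7.55 and 7.58 in vehicle and 8.45, 8.22 and 7.67 with DOX. Its region with the most coverage, chr8:32226601-32228100, had 39.9, 41.4 and 40.6 in vehicle and 33.3, 34.5 and 34.2 with DOX (-0.26 ± 0.11, adjusted p = 0.0854), which does not overlap but was not called. Over the alternatives the log2 fold change of this region ran from -0.45 to 0.21, so that its direction was not fixed. The 19 regions around RIGI, a cytosolic sensor of viral RNA, had medians of 4.67, 4.65 and 5.04 in vehicle and 2.99, 2.02 and 3.06 with DOX, with 3 that fell and 0 that rose, where 16.7% of the whole set fell and 5.95% rose (7.19% and 4.70% of all regions tested). Its region with the most coverage, chr9:32440001-32440900, had 9.34, 8.45 and 9.42 in vehicle and 1.96, 1.93 and 5.18 with DOX (-1.51 ± 0.34, adjusted p = 0.00112). The windows over ADGRB1 and ZC3H3 at the end of chromosome 8 held 18 regions each, of which 10 and 13 rose, and the one around RHPN1 held 16, of which 9 rose. Their median GC was 64.5%, 63.9% and 60%. Of the set's regions on chromosome 8 with 60% GC or more, 60.2% rose (35.7% over all regions there). From 50 to 60% GC these shares were 19.8% and 11.9%, and the RHPN1 median lay at the border of the 2 classes. The counts of these windows were not tested against the shares.

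Counted by nearest protein-coding gene, 2847 genes had at least 1 region and 79 genes had 10 or more. Beside the counts per gene stand the 16.7% of the set that fell and 5.95% that rose, and the 7.19% and 4.70% of all regions tested. NRG1 was nearest to 45 regions (and to 2 shared distal regions), of which 3 fell and 1 rose (median log2 fold change -0.26). CSMD3, on chromosome 8, had 40 regions and no shared distal one, and 4 fell and 5 rose (0.12). TENM2, a teneurin gene of cell adhesion, also had 40, of which 8 fell and 1 rose (-0.41). The glypican gene GPC5 and the protocadherin gene PCDH9 were each nearest to 31. The 20 regions nearest to CDH11, the cadherin of mesenchymal cells, included 7 that fell and 1 that rose (median -0.92), and no shared distal region was nearest to it. ROBO1, a receptor of cell guidance, had 19 regions, of which 4 fell (median -0.75), and CNTNAP2 had 15, of which 8 fell (median -1.39). Other genes had regions that mostly rose or did not change enough to be called. TSNARE1, on chromosome 8, had 22 regions, of which 15 rose and 0 fell, and DEFB115, on chromosome 20, had 15, of which 8 rose and 0 fell (median 1.59). In the stretch of chromosome 8 from 140 Mb, where TSNARE1 lies, 98 of the 183 regions of the set rose and 0 fell. On chromosome 20, 34 of 199 rose and 17 fell. MYC had 25, of which 1 rose and 0 fell (0.24), and SPIDR had 22 with no call (0.03). Nearness does not show which gene a region acts on.

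Gene lists chosen for these cell types were read within 100 kb of a TSS, where 5174 of 19103 protein-coding genes (27.1%) had at least 1 region. The counts below are to be read against the 16.7% of the whole set that fell and the 7.19% of all regions tested. Of 30 genes of the extracellular matrix, 19 had 58 regions in all, of which 14 (24.1%) fell and 1 rose (median log2 fold change -0.64). Of 26 mesenchymal transcription factors, 14 had 30 regions, of which 4 (13.3%) fell and 1 rose (-0.58). Of 22 adhesion and cytoskeleton genes, 8 had 24 regions, of which 4 (16.7%) fell and 0 rose (-0.56). Of 28 epithelial genes, 12 had 13 regions, of which 3 (23.1%) fell and 0 rose (-0.69), and of 19 luminal breast genes, 9 had 11 regions, of which 2 (18.2%) fell (-0.84). Of 24 YAP and TEAD targets, 12 had 27 regions, of which 3 (11.1%) fell and 1 rose (-0.14). Of 22 TGF-beta pathway genes, 10 had 19 regions, of which 2 (10.5%) fell and 1 rose (-0.56), and of 23 AP-1 family genes, 8 had 15 regions, of which 3 (20%) fell and 1 rose (-0.37). Of 17 prostate lineage genes, 3 had 7 regions, of which 1 (14.3%) fell (-0.59). All medians were negative, as was that of the whole set at -0.46, and no list was tested.

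SPARC, a secreted matrix protein, had 7 regions within 100 kb, all on chromosome 5. In its intron, chr5:151695901-151697300 had 33.9, 32.7 and 36.9 in vehicle and 16.3, 19.1 and 15.5 with DOX (-1.03 ± 0.14, adjusted p = 2.89e-06). The next, chr5:151698701-151699900, had 31.3, 33 and 30.6 in vehicle and 13, 13.8 and 14.2 with DOX (-1.20 ± 0.16, adjusted p = 1.30e-06). These 2 regions had a peak in all 6 libraries, and the other 5 were not called. The first was just past the fold limit. It was not called with the GC trend removed, or without vehicle replicate 3 (-0.99) or DOX replicate 3 (-0.97), while the second was called in every alternative. THBS2, which encodes the matricellular protein thrombospondin 2, had 9 regions, of which 1 fell (-1.16, adjusted p = 0.00848). That call was lost in 10 alternatives, among them DESeq2 and leaving out any library but DOX replicate 1 (adjusted p from 0.0151 to 0.0586 on leaving those out). Another region near THBS2, chr6:169166901-169170800, had 19.4, 23.3 and 19.6 in vehicle and 24.2, 30.2 and 28.8 with DOX, a difference of 0.42 that was under the fold limit (adjusted p = 0.0037).

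Other listed genes had called regions of lower coverage. CAV1, the caveolar coat protein, had a region at chr7:116582101-116583900 with 14.2, 17.2 and 16.2 in vehicle and 6.24, 8.05 and 9.14 with DOX (-1.01 ± 0.18, adjusted p = 1.16e-04). It was not called without vehicle replicate 2 (-0.94) or DOX replicate 1 (-0.87), with the GC trend removed, in the highest bin or with limma-trend. The intron of RUNX1 held differences of both signs. There chr21:35563701-35564500 fell from 9.41, 13.8 and 9.62 to 4.47, 5.82 and 3.83 (-1.27 ± 0.31, adjusted p = 0.0026). Its call was lost with the GC trend removed, in the highest bin, and without vehicle replicate 2 (adjusted p = 0.0331) or DOX replicate 3 (adjusted p = 0.0219). The region chr21:35086301-35087000 had 7.56, 9.22 and 7.43 against 11.8, 18.3 and 12 and was not called (0.78 ± 0.27, adjusted p = 0.026), though it was with the GC trend removed (1.07 ± 0.27, adjusted p = 0.00374). MAFK, the AP-1 family gene with the most regions, had 6, of which chr7:1483201-1483700 rose from 3.32, 4.03 and 3.6 to 13.2, 7.14 and 6.84 (means 3.65 ± 0.358 and 9.07 ± 3.6, SD, n = 3 each, edgeR adjusted p = 0.00918). That call was lost in 9 alternatives, among them DESeq2, limma-trend, library totals and the GC trend removed. They include leaving out any 1 of the vehicle libraries or DOX replicate 1 (adjusted p from 0.0318 to 0.0917). The other 5 regions were not called. Near ATF3 and BATF3, of the same family, 2 regions fell. One, chr1:212635201-212635600, had 8.1, 9.38 and 5.7 in vehicle and 0, 0 and 1.62 with DOX (adjusted p = 3.63e-04) and was called in every alternative. The other, chr1:212636301-212637000, had 14.6, 12.3 and 11.8 in vehicle and 3.7, 8.27 and 6.05 with DOX (-1.08 ± 0.30, adjusted p = 0.00659). Its call was lost in 10 alternatives, among them limma-trend, the GC trend removed and leaving out any library but DOX replicate 2 (adjusted p from 0.0165 to 0.0535 on leaving those out). In introns of GRHL2, an epithelial transcription factor, 2 regions fell by 1.55 and 2.10 on the log2 scale and were called in every alternative. These 2 and the first region near ATF3 had peaks in the vehicle libraries only, a choice that no alternative undoes. In an intron near the TSS of TMPRSS2, a protease gene of prostate epithelium, chr21:41463001-41463800 fell from 6.44, 6.06 and 5.55 to 1.82, 0.547 and 3.48 (-1.58 ± 0.43, adjusted p = 0.00591). The groups did not overlap. The call was lost in 9 alternatives, among them DESeq2, limma-trend and leaving out any library but DOX replicate 3 (adjusted p from 0.0177 to 0.0309 on leaving those out). Another region near TMPRSS2, chr21:41615301-41617200, had 26.9, 25.3 and 25.8 in vehicle and 11.9, 25.6 and 11.5 with DOX, where 1 DOX library lay within the vehicle range and the region was not called (-0.70 ± 0.19, adjusted p = 0.00505). Without DOX replicate 2 it was called lower (-1.16 ± 0.15, adjusted p = 7.52e-07).

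Near the remaining genes named for their number of regions, calls were few. The fallen regions given for RUNX1, THBS2, ATF3, GRHL2, TMPRSS2, TBX18, CALD1, CD44 and TGFBR1 had peaks in the vehicle libraries only, while those of SPARC and CAV1 had one in all 6 libraries. TBX18, a T-box factor of mesenchyme, had 4 regions, of which 2 fell (median -1.34). Both of these lost their call in the highest bin. That at chr6:84724701-84726800 also lost it with the GC trend removed and without vehicle replicate 2 or 3 or DOX replicate 2 (adjusted p from 0.0101 to 0.0284 on leaving those out). CALD1 (caldesmon, an actin-binding protein) had 4 and CD44 (the hyaluronan receptor) had 3, and in both 1 fell. That of CD44 was not called with the GC trend removed, in the highest bin, or without vehicle replicate 1 or 2 or DOX replicate 3 (adjusted p from 0.0103 to 0.0176 on leaving those out). The CALD1 region chr7:134905201-134905800 had 10.7, 9.15 and 9.88 in vehicle and 3.77, 2.37 and 2.5 with DOX (-1.71 ± 0.37, adjusted p = 7.33e-04). TGFBR1, a receptor of TGF-beta, had 7 regions, of which 1 fell (-1.92, adjusted p = 0.00689), and this call was lost in 12 alternatives, among them DESeq2, limma-trend and leaving out any 1 library (adjusted p from 0.012 to 0.0343 on leaving 1 out). LOXL2, a collagen-crosslinking oxidase, and ASAP1, both on chromosome 8, had 6 and 13 regions, and 1 rose in each. That of ASAP1 was not called in the highest bin, or without vehicle replicate 1 or 2 or DOX replicate 1 (adjusted p from 0.0176 to 0.0269 on leaving those out). The LOXL2 region chr8:23300901-23301400 had 4.63, 3.1 and 2.76 in vehicle and 5.73, 12.3 and 10.3 with DOX (1.42 ± 0.38, adjusted p = 0.00518). Its call was lost in 8 alternatives, among them limma-trend, the highest bin and the replicate block. They include leaving out any 1 of the 3 vehicle libraries or DOX replicate 2 or 3 (adjusted p from 0.0121 to 0.0406). No region was called near WWTR1, NT5E, TGFBR3, TGFB3, PRRX2, EHF, CLDN1, TFAP2A, PGR or TRPM8, which had 1 to 4 each.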

How the data were processed

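The deposited BT-549 table holds estimated counts that the authors took as the mean fragment coverage of each 100-bp bin, not corrected for depth. Per the study's methods, the authors used bwa-mem for alignment to GRCh38 and Picard to drop duplicates, called peaks per library with MACS2 (version 2.2.7.1 in the submitters' processing notes) at q 0.05, merged them, and kept regions found in at least 3 replicates. The deposited peak lists give a fold enrichment, a -log10 p-value and a -log10 q-value per peak, as the authors' caller wrote them. The q-values served only for a stricter peak limit.

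Bin values were summed per region and rounded to whole numbers, since they are not whole. All 46298 regions had a total of at least 10 and were tested with edgeR 4.0.16 (robust quasi-likelihood, TMM factors, Benjamini-Hochberg adjustment, R 4.3.3), and standard errors are the log2 fold change over the square root of F. Normalised coverage is the region sum per bin, scaled from each effective library size to their mean of 7293750. Summed coverage sets the precision and is not the number of fragments. On simulated data the fit was checked for known changes.

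Windows of 300 bp were read from GRCh38 around the middle of the highest bin, and distances and features come from GENCODE v44. Named by rule were the 5 regions with the most vehicle coverage, the 5 widest called changes in each direction with no overlap between groups and a mean coverage of at least 5 in 1 group, the 5 windows of 200 kb with the most regions, up to 3 listed genes per list by number of regions, and the 3 regions on each side of the 3-kb limit, of which some items are not reported here. The members and the gene lists were chosen with earlier results of these data known. Alternatives were RLE factors, library totals, loess offsets, a GC trend, filterByExpr, no filter, the highest bin, bins, limma-trend 3.58.1, DESeq2 1.42.0, a fit blocked on replicate number, and fits without each library in turn. DU-145 libraries were used only for the choice of regions and the comparison of sequences.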

Additional observations from a re-analysis of the deposited data

How the results depend on the processing

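The 1153 regions that fell and 411 that rose came to 602 that fell with the GC trend removed, 254 that rose with limma-trend, 1940 and 712 at an adjusted p under 0.05 with no fold limit, and 3085 and 911 single bins called. Leaving out each library in turn gave 699 to 1032 that fell and 236 to 462 that rose, and each vehicle library moved both counts by over 1.5 times (699 and 243 without vehicle replicate 1, 756 and 236 without replicate 2, 746 and 244 without replicate 3). Outside chromosome 8, 249 rose. Among regions with a peak in all 6 libraries 64 fell and 139 rose, and the median turned from -0.46 to 0.11, and among those with a peak in any DOX library 225 fell and the median was 0.29. These 3 subsets were chosen after seeing the data, and the cause was not tested. The median over the regions with a peak in all 6 libraries was itself -0.02 in the highest bin and 0.41 with the GC trend removed. DESeq2 gave 908 and 355, and library totals gave 1320 and 327 (80.1% of calls lower), with a median of -0.56 that includes a shift of -0.10 over all regions. Over the alternatives with the same regions, 78 to 171 regions with an ISRE sequence fell, and their median ran from -1.02 to -0.58. With the replicate number as a block, 1023 fell and 307 rose. Same-numbered libraries deviated together only slightly (r from 0.005 to 0.071). The same-numbered DOX library was the best match for vehicle replicates 2 and 3 but not for replicate 1. The DOX libraries were shallow, so that these values do not settle whether the libraries were paired.

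The share of windows with AP-1 letters was 20.9% in 200 bp, 32.5% in 500 bp and 23.2% around the middle of the region. With peaks covering at least 50% of a region, 241 regions had a peak in all 6 libraries. Of the regions named by rule for their coverage or change or for their ISRE sequences, those near OXSM, NAF1, ATP23, SLC10A2 and ITGA6 lost their call in at least 1 alternative, and the cause was not tested. Of 107 regions near the genes named from the lists or with the most coverage in their window, 20 were called, and 5 of these kept their call in every alternative (1 near SPARC, CALD1 and ATF3 each, and 2 in GRHL2). The other 15, near TBX18, RUNX1, THBS2, SPARC, LOXL2, CAV1, CD44, ASAP1, TGFBR1, MAFK, ATF3, MYB, TMPRSS2 and RIGI, lost it in at least 1 alternative with no change of direction, and those near TBX18 (1 of 2) and RIGI only in the highest bin. Of the 5 that kept it, only that near SPARC had a peak in the DOX libraries. The rest entered through the vehicle libraries, where they were high. Every alternative used the same regions, so that a kept call does not account for that choice. Of the 87 not called, 6 were called in at least 1 alternative. Without DOX replicate 2 these were 1 each near TMPRSS2 (-1.16, from -0.70), SPARC (-1.06, from -0.95) and CAV1 (-3.46, from -1.23), and without DOX replicate 1 it was 1 near TGFBR1 (-3.02, from -0.78). The SPARC region and 1 near CD44 (-1.17) were called with library totals, and 1 near RUNX1 (1.07) with the GC trend removed. The DOX libraries were shallow, so that regions with little coverage there cannot be told from closed ones at this depth.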
